A study of Mus musculus with 24 samples.

Results

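DNA double-strand breaks can be rejoined directly, end to end, and the 10 genes described here encode proteins that protect the broken ends or join them. They are Trp53bp1, Rif1, Xrcc5, Xrcc6, Prkdc, Xrcc4, Nhej1, Lig4, Polq and Lig3, taken by symbol from a list, and they are 10 of 26322 genes with at least 1 read in the data. In classical non-homologous end joining, the Ku heterodimer binds the broken end and recruits the kinase DNA-PKcs, and ligase IV with its partners XRCC4 and XLF seals it. The 53BP1 protein and its effector RIF1 shield ends from resection, which opposes homologous recombination, the pathway that needs BRCA1. DNA polymerase theta and ligase III act in alternative end joining, which uses short stretches of matching sequence near resected ends, and cells without BRCA1 are known to depend on it.

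RNA was sequenced from mouse prostate organoids and from prostate tissue. The groups carry the genotype labels Brca1-/- (KO), Brca1+/- (HET) and wild type (WT). Organoids were grown in Matrigel from cells of the anterior lobes of 3-month-old mice, in medium without or with dihydrotestosterone (DHT), the potent androgen made from testosterone, and each of the 6 combinations of genotype and medium had 3 libraries. Anterior lobe tissue had 2 libraries per genotype, for which the labels do not say the age. The labels name no Cre driver, deleted exon or strain, and they do not say whether replicates came from separate animals or cultures, so p-values measure the spread between these libraries only. In all 24 libraries RNA is bulk, so fewer cells of a type and less RNA per cell cannot be told apart.

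Libraries held 11965815 to 58445041 estimated reads, with the fewest in WT plus DHT replicate 1. Mitochondrial genes took 9.97% of reads in KO minus DHT replicate 1 and 9.40% in HET minus DHT replicate 1. The 12 epithelial markers summed to between 6892 and 8146 counts-per-million (CPM) in organoids and the 8 stromal and muscle markers to between 8.35 and 41.7 CPM. In tissue the stromal markers summed to between 644 and 4072 CPM. The 7 seminal vesicle genes summed to at most 13.4 CPM in KO tissue and to 4.52 and 42390 CPM in HET tissue, against 2.96 and 182187 CPM in WT tissue, so 1 HET and 1 WT tissue library stood apart. The deleted part of Brca1 is not given, so its RNA over the whole gene does not check the labels, and KO, HET and WT stand for the labels here. Without DHT Brca1 averaged 11.4 ± 1.497 CPM in KO and 18.6 ± 1.54 in HET organoids, against 12.9 ± 1.49 in WT organoids (SD, n = 3 each). With DHT these means were 10.9 ± 1.10 CPM in KO and 16.9 ± 1.83 in HET organoids, against 13.7 ± 0.561 in WT organoids (SD, n = 3 each). Brca1 was called lower in KO than HET in both media, at log2 changes of -0.71 and -0.63 (adjusted p = 0.00542 and 0.0101 in edgeR), and higher in HET than WT without DHT, at 0.53 (adjusted p = 0.0147 in edgeR).

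Of the 10 genes, 2 differed between genotypes in organoids: Polq, which encodes polymerase theta, rose in HET relative to WT organoids in both media, and Lig3, which encodes ligase III, fell there in both. Without DHT, Lig3 also fell in KO relative to WT organoids, and Polq fell in KO relative to HET organoids. The classical joining genes and the end protection genes passed the test in no comparison. A gene is called here when the edgeR quasi-likelihood test gave it an adjusted p under 0.05 over all 15427 genes tested in organoids. In HET against WT organoids without DHT, 2 of the 10 were called, where 7.81% of all genes tested were. In HET against WT organoids with DHT, 2 of the 10 were called, where 7.51% of all genes were. The count was 1 of 10 against a background of 4.80% for KO against WT organoids without DHT, and 1 of 10 against 2.92% for KO against HET organoids without DHT. With DHT, 0 of 10 were called in KO against WT organoids, where 4.11% of all genes were, and 0 of 10 in KO against HET organoids, where 3.54% were. These comparisons share groups, so their calls are not independent of each other. The median log2 change of the 10 genes lay between -0.04 and 0.09 over these 6 comparisons, and the median of all genes tested was within 0.01 of 0 in each.

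**Figure D1:**
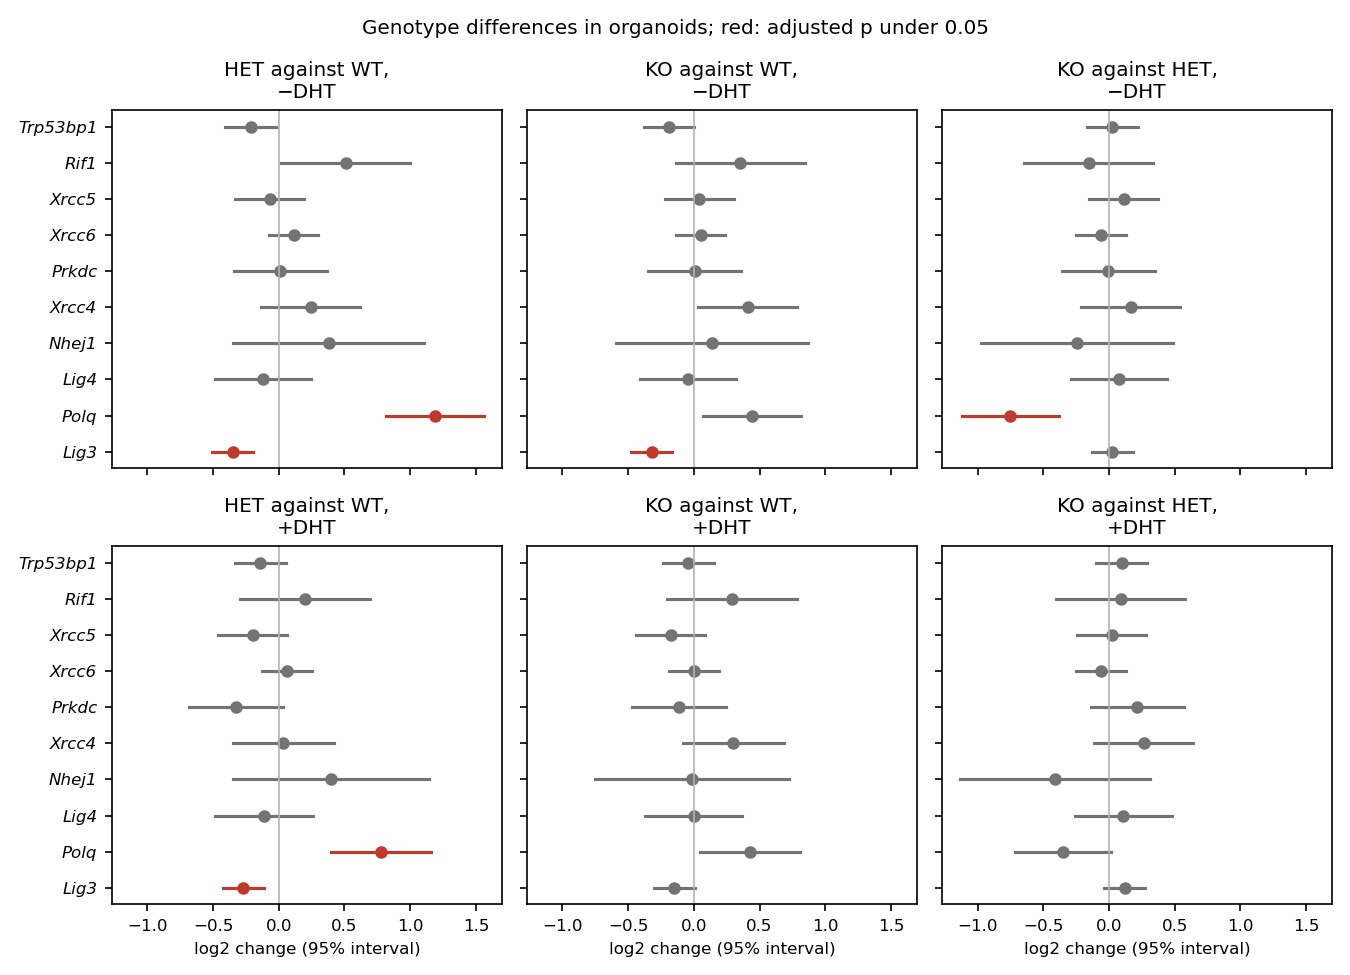
Log2 change with its 95% interval (x axis) of each of the 10 genes (y axis) in the 6 genotype comparisons of organoids, from the edgeR fit; red marks an adjusted p under 0.05. Polq and Lig3 are the genes in red: Polq is 1.19 above WT in HET organoids without DHT, and Lig3 is 0.35 below.

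Polq (chr16:37011786-37095417, plus strand, GRCm38) encodes the polymerase that anneals and extends short matching stretches in alternative end joining. Without DHT it was at 4.72, 3.86 and 3.89 CPM in the HET libraries and at 2.73, 2.32 and 2.37 CPM in the KO libraries, against 1.49, 1.62 and 2.34 CPM in the WT libraries. Every HET library was above every KO and every WT library, whereas KO replicate 2 was below WT replicate 3. HET and WT did not overlap for 20.3% of all genes, and KO and HET for 12.1%. The log2 change was 1.19 (SE 0.175) for HET against WT, with an adjusted p of 0.000364 in edgeR's quasi-likelihood test. For KO against HET it was -0.75 (SE 0.174, adjusted p = 0.0283 in edgeR). KO against WT gave 0.44 (SE 0.175) with an adjusted p of 0.221 in edgeR, and 0.67 with an adjusted p of 0.0436 when WT minus DHT replicate 3 was left out.

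With DHT, Polq was at 3.53, 4.01 and 3.94 CPM in HET libraries and at 3.04, 3.05 and 2.93 CPM in KO libraries, against 2.59, 2.05 and 2.17 CPM in WT libraries. The 3 groups did not overlap, with HET highest and WT lowest. Such separation held for 29.1% of all genes in HET against WT, 24.3% in KO against WT and 31.1% in KO against HET. HET exceeded WT by 0.78 on the log2 scale (SE 0.178), at an adjusted p of 0.0131 in edgeR's test. The difference of KO from WT was 0.43 (SE 0.178, adjusted p = 0.282 in edgeR) and that of KO from HET was -0.35 (SE 0.171, adjusted p = 0.383 in edgeR). Whether the HET difference from WT depends on the medium was tested directly: the log2 change without DHT exceeded that with DHT by 0.41, with a 95% interval from -0.11 to 0.94 and an adjusted p of 0.99998 in edgeR. The call with DHT was lost when HET replicate 2 or 3 or WT replicate 2 or 3 was left out, with log2 changes of 0.71 to 0.86 over the 6 fits that each left out 1 library and adjusted p-values up to 0.0670 in edgeR. Without DHT the HET rise over WT held in all 6 such fits, but was lost when only the groups compared were fitted, at a log2 change of 1.20 and an adjusted p of 0.0577 in edgeR. The fall of KO from HET without DHT was lost in 4 of 6, those without HET replicate 1 or 2 or KO replicate 2 or 3, at adjusted p-values up to 0.128 in edgeR. It was also lost with no low-count filter (adjusted p = 0.0748 in edgeR), with transcript length offsets (0.0654), with only the groups compared (0.419) and without the 3 organoid libraries with the fewest reads (0.0874), at log2 changes of -0.75, -0.78, -0.75 and -0.72 in that order.

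Polq is a low gene, and its counts limit this result: it had 23 reads in WT plus DHT replicate 1 and at most 244 in any library. Its reads were also divided among transcripts that differ in kind. The annotation holds 7 Polq transcripts, of which 2 are protein-coding, and the coding share of Polq reads ranged from 0 to 89.9% between organoid libraries. In HET minus DHT replicates 1 to 3 the coding transcripts had 3.78, 0.914 and 0 CPM, while the transcripts annotated for nonsense-mediated decay had 0, 2.28 and 3.01 CPM. In the 3 WT minus DHT libraries the coding transcripts had 1.20, 1.46 and 1.95 CPM and the decay transcripts had 0 in each. The coding and decay transcripts together were at 3.78, 3.20 and 3.01 CPM in HET libraries without DHT, against 1.20, 1.46 and 1.95 CPM in WT libraries without DHT. Their groups did not overlap, where 20.3% of all genes did not. This sum holds most of the Polq reads in these libraries, so it largely repeats the result for the whole gene. The retained-intron transcripts together, of which Polq-205 covers the last part of the gene, were at 0.937, 0.656 and 0.875 CPM in the same HET libraries, against 0.295, 0.163 and 0.401 CPM in the same WT libraries, and did not overlap either. Counted over protein-coding transcripts alone, the HET difference from WT without DHT was gone, with a log2 change of -0.000508 and an adjusted p of 0.99981 in edgeR, and that of KO from HET turned to 0.42 with an adjusted p of 0.99982 in edgeR. With DHT the HET difference from WT kept its size over coding transcripts, at 0.76, but was not called (adjusted p = 0.831 in edgeR). The higher Polq level in HET organoids is thus a result for all transcripts of the gene, and which transcript carried it cannot be told from these estimates.

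**Figure D2:**
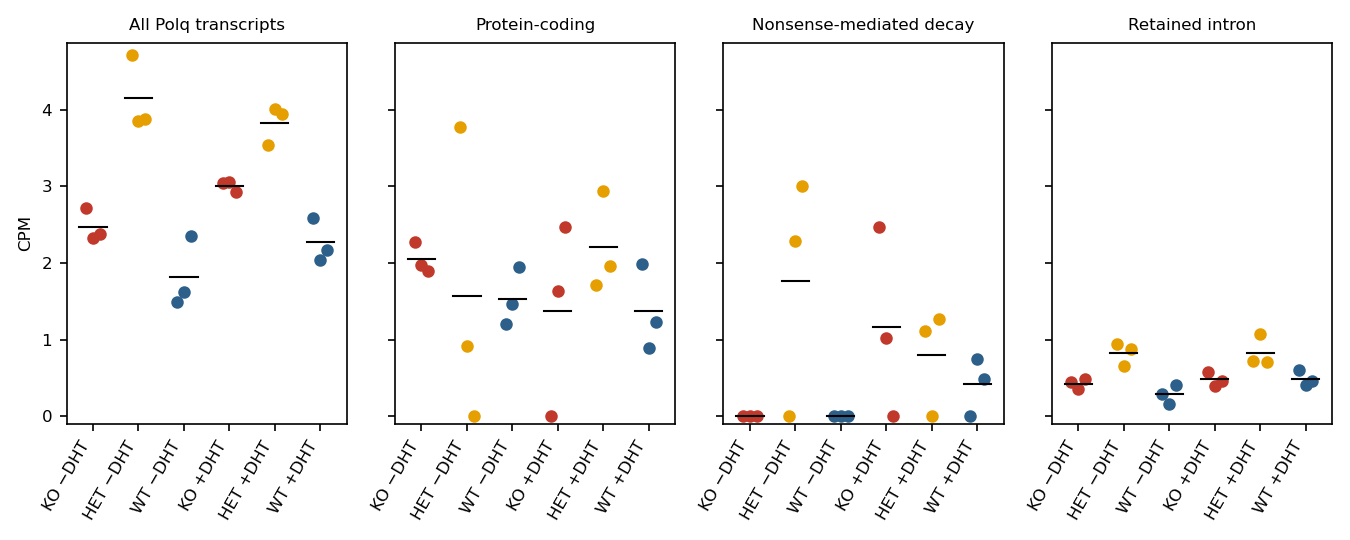
Polq level in CPM (y axis) in each organoid library (points, with group means as lines) for all transcripts and for the coding, nonsense-mediated decay and retained-intron transcripts. Over all transcripts the HET libraries lie highest in both media, while the coding and decay panels hold libraries at 0 within the same group, such as HET minus DHT replicate 3, with 0 coding and 3.01 decay CPM.

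Lig3 (chr11:82781108-82804274, plus strand, GRCm38) encodes the ligase that seals ends in alternative end joining and nicks in base excision repair and in mitochondrial DNA. Without DHT it was at 79.8, 89.9 and 91.2 CPM in KO libraries and at 80.2, 85.2 and 90.9 CPM in HET libraries, against 108.5, 107.9 and 109.8 CPM in WT libraries. All 6 KO and HET libraries lay below all 3 WT libraries, and KO and HET overlapped. KO and WT did not overlap for 17.0% of all genes, and HET and WT for 20.3%. The log2 change was -0.32 for KO against WT (SE 0.0734, adjusted p = 0.0177 in edgeR) and -0.35 for HET against WT (SE 0.0734, adjusted p = 0.00661 in edgeR). The difference of KO from HET was 0.03 with a 95% interval from -0.13 to 0.18.

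With DHT, Lig3 was at 90.6, 90.0 and 90.0 CPM in KO libraries and at 81.1, 87.2 and 80.6 CPM in HET libraries, against 100.7, 102.0 and 97.4 CPM in WT libraries. The WT libraries were again highest, and here the KO libraries lay above the HET ones. With DHT, 24.3% of all genes separated KO from WT, 29.1% HET from WT and 31.1% KO from HET. HET fell below WT by 0.27 on the log2 scale (log2 change -0.27, SE 0.0736, adjusted p = 0.0337 in edgeR), whereas KO against WT gave -0.15 (SE 0.0735, adjusted p = 0.415 in edgeR). For the dependence on the medium, the log2 change without DHT minus that with DHT was -0.17 for KO against WT, with a 95% interval from -0.39 to 0.05, and -0.08 for HET against WT, with an interval from -0.30 to 0.14.

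The Lig3 change is small, and its calls depended on the processing. With offsets for the mean effective transcript length they were lost, at adjusted p-values in edgeR of 0.0699 for KO against WT without DHT, 0.201 for HET against WT without DHT and 0.418 for HET against WT with DHT. The log2 changes with these offsets were -0.41, -0.29 and -0.20 in the same order. With only the groups compared in the fit they were lost too, at adjusted p-values in edgeR of 0.326, 0.171 and 0.0586 in the same order. The log2 changes there were -0.31, -0.34 and -0.28. Over protein-coding transcripts alone the calls held, at adjusted p-values in edgeR of 0.0251, 0.00548 and 0.0216 in the same order. With no low-count filter the KO call without DHT (adjusted p = 0.0803 in edgeR) and the HET call with DHT (0.168) were lost. The HET call without DHT held in all 6 fits that left out 1 library, that of KO in 2 of 6 and that of HET with DHT in 1 of 6, with adjusted p-values in edgeR up to 0.0342, 0.0822 and 0.139. KO without DHT lost it without KO replicate 1 or any 1 of the WT libraries, and HET with DHT lost it without HET replicate 1 or 3 or any 1 of the WT libraries. Lig3 shares 1826 exon bases with Rffl, a ubiquitin ligase gene on the opposite strand, and without stated strand their reads cannot be told apart there. Rffl averaged 29.3 CPM in KO and 39.0 CPM in WT organoids without DHT, a log2 change of -0.41 (adjusted p = 0.0492 in edgeR), while its differences of HET from WT were -0.13 without DHT and 0.19 with DHT and were not called. Lig3 lies 18.7 Mb from Brca1 on chromosome 11.

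The promoters of these 2 genes are printed because they are the ones whose RNA differed, and because motifs of cell cycle promoters can be looked for in them. Each runs from 250 bases before to 20 after the start, on the plus strand, from RefSeq in GRCm38.p6, for Polq chr16:37011536-37011805 and for Lig3 chr11:82780859-82781128. Capitals mark matches on either strand to TTTGAA, the core of the cell cycle genes homology region (CHR), to GGCGGGAA, an E2F motif, or to CCAAT.
Polq: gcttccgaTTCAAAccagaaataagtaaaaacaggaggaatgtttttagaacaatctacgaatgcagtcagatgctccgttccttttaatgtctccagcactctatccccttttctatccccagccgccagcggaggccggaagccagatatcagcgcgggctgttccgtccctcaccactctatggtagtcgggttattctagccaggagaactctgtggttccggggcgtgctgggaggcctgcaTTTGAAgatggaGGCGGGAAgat
Lig3: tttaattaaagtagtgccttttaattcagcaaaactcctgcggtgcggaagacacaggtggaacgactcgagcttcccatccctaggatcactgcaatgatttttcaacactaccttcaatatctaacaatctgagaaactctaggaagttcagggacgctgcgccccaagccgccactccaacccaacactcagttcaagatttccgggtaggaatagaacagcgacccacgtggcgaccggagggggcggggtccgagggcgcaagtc
Polq holds 2 CHR matches, at -242 on the minus strand and at -3 on the plus strand, and 1 E2F match at 10. The matches do not overlap one another. Lig3 holds no match to any of the 3 motifs in this window. That window ends before the annotated starts of Lig3-211, the Lig3 transcript of highest mean TPM, at 82781203, and of Lig3-201, at 82781135. Of 32851 mouse promoter windows of the same length, 16.8% hold a CHR match, 2.02% the E2F match and 35.4% a CCAAT match. Of the 10 genes, 8 had a promoter entry, and the single other match among them was a CCAAT in Xrcc5 at -169. Rif1 and Prkdc had none. A match is a run of letters and not a measured binding site.

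A list of 25 cell cycle genes moved in the same comparisons in which Polq was highest. In HET against WT organoids without DHT, 21 of 25 rose and 0 fell, where 7.81% of all genes were called. Their median log2 change was 0.73, against 0.00 for all genes. With DHT, 16 of 25 rose and 0 fell in HET against WT, where 7.51% of all genes were called, with a median of 0.60. The mitotic kinase gene Aurka averaged 39.9 ± 1.06 CPM in HET and 21.1 ± 1.28 CPM in WT organoids without DHT (SD, n = 3 each). In KO against WT organoids 0 of 25 were called in either medium by edgeR, where 4.80% of all genes were without DHT and 4.11% with DHT. The median log2 changes were 0.14 without DHT and 0.00 with DHT. Of the 25, 8 without and 1 with DHT had an unadjusted p under 0.05 in edgeR, against 2288 and 2034 of all 15427 genes. In KO against HET organoids 14 of 25 fell without DHT and 15 of 25 fell with DHT, where 2.92% and 3.54% of all genes were called. The summed level of the 25 genes ranged from 2004 to 2320 CPM in HET organoids and from 1346 to 1663 CPM in KO organoids, against 1113 to 1347 CPM in WT organoids, all without DHT. With DHT the sum ranged from 2023 to 2205 CPM in HET and from 1406 to 1482 CPM in KO organoids, against 1303 to 1380 CPM in WT organoids.

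Some markers of other cells also moved with genotype. The 8 stromal and muscle markers summed to 8.35 to 11.4 CPM in HET and 21.8 to 30.3 CPM in KO organoids, against 26.5 to 32.0 CPM in WT organoids, all without DHT. With DHT the sums were 9.89 to 13.8 CPM in HET and 32.6 to 41.7 CPM in KO organoids, against 22.8 to 28.6 CPM in WT organoids. Of the 8, 4 were high enough to test, and they did not move together. In HET against WT, 2 lay above 0 and 2 below in each medium, reaching 1.34 without DHT and 0.66 with DHT. The 1 called there, Dcn, a fibroblast matrix gene, fell by 1.77 on the log2 scale without DHT and by 1.23 with DHT. In KO against WT, 2 lay above 0 and 2 below without DHT, and 3 above and 1 below with DHT. In KO against HET, 2 lay above 0 and 2 below without DHT, and all 4 above with DHT. Acta2, the smooth muscle actin gene, rose in KO against WT by 3.38 on the log2 scale without DHT and by 2.46 with DHT. Both rose in KO against HET in each medium, Dcn by 1.39 without DHT and 1.68 with DHT, and Acta2 by 2.04 without DHT and 1.90 with DHT. The highest adjusted p among these calls was 0.00939 in edgeR, for Acta2 in KO against HET with DHT. These genes were low, at means of at most 3.47 CPM for Acta2 and 32.7 CPM for Dcn, while Lum or Des was at 0 in all 3 libraries of a group. The 5 leukocyte markers summed to 68.3 to 108 CPM in HET and 47.1 to 62.2 CPM in KO organoids, against 41.6 to 67.0 CPM in WT organoids without DHT, and the T cell gene Cd3e and the macrophage gene Adgre1 were at 0 throughout several groups. In tissue, leukocytes and all, the same sum was 15.7 to 70.7 CPM. Of the 5, 2 were high enough to test in organoids, and 0 were called in any genotype comparison there. In HET against WT without DHT these 2 had log2 changes of 0.63 and -0.04. The part of the cell cycle level and of these markers in the Polq and Lig3 results was not tested.

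**Figure D3:**
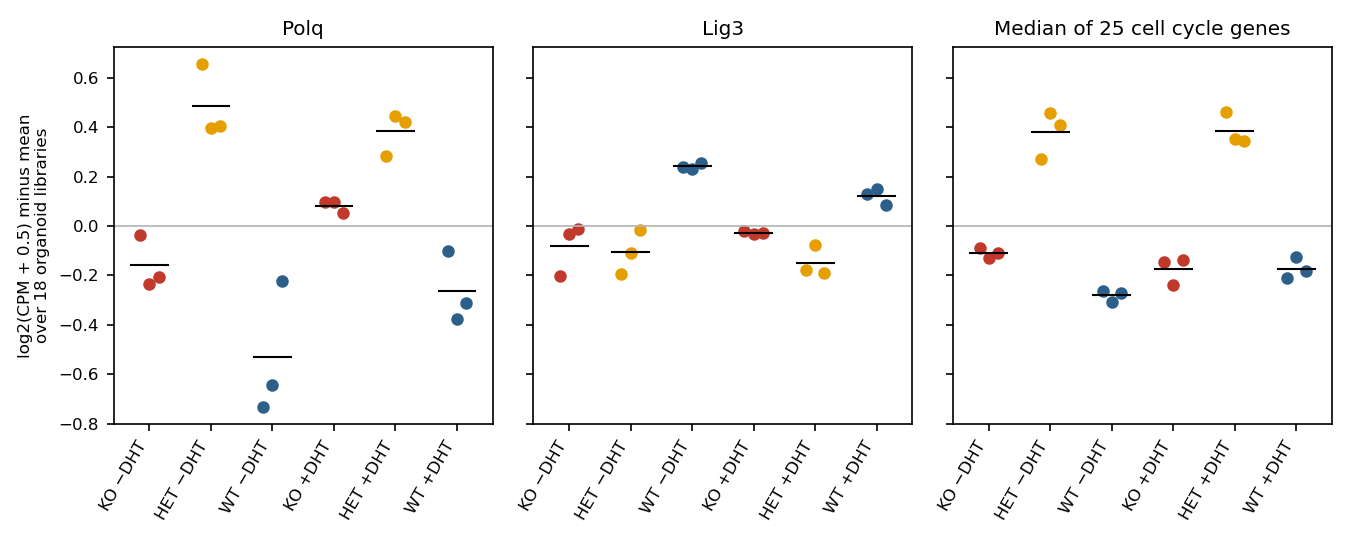
Level of Polq, of Lig3 and the median of the 25 cell cycle genes in each of 18 organoid libraries (points; lines are group means), as log2 of CPM plus 0.5 minus the mean over these libraries (y axis). The 6 HET libraries are highest for Polq and for the cell cycle median, and the 6 WT libraries are highest for Lig3.

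Over the 18 organoid libraries, the genes whose centred log2 level differed least from that of Polq, by the root mean square difference among 12333 genes, were Zwilch at 0.135, Ripply3 at 0.141 and Plk4 at 0.143. Zwilch encodes a kinetochore checkpoint protein and Plk4 the kinase that starts centriole duplication. The own spread of Polq around its mean was 0.379 on the same log2 scale. For Lig3, with a spread of 0.147, they were Ago1 at 0.0457, Itprid2 at 0.0524 and Igf2r at 0.0615. Ago1, which encodes an Argonaute protein of small RNA silencing, was also the gene closest to Trp53bp1, at 0.0626.

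Among the end protection genes, Trp53bp1 (chr2:121193281-121271407, minus strand) encodes 53BP1, which binds marked nucleosomes at breaks. Without DHT it was at 63.9, 76.2 and 81.0 CPM in KO libraries and at 67.9, 73.4 and 76.3 CPM in HET libraries, against 85.9, 81.6 and 84.6 CPM in WT libraries. Neither KO nor HET overlapped WT, which held for 17.0% of all genes in KO and 20.3% in HET. The log2 changes of -0.19 (SE 0.0908) for KO and -0.21 (SE 0.0908) for HET had adjusted p-values of 0.355 and 0.211 in edgeR. With DHT the means were 75.4 ± 0.842 CPM in KO and 70.5 ± 4.69 CPM in HET organoids, against 77.7 ± 5.03 CPM in WT organoids (SD, n = 3 each). Trp53bp1 shares 2130 exon bases with Tubgcp4 on the opposite strand, so part of its reads may belong to that gene. Tubgcp4 was called in none of these comparisons.

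Rif1 (chr2:52072832-52122383, plus strand) encodes the effector that 53BP1 recruits. Without DHT it was at 61.0, 40.3 and 35.0 CPM in KO libraries and at 63.8, 51.1 and 36.6 CPM in HET libraries, against 33.8, 30.8 and 41.8 CPM in WT libraries. The highest library of the KO and of the HET group was replicate 1 in each, the libraries with the highest mitochondrial shares, and both groups overlapped WT. The log2 change of HET from WT was 0.51 (SE 0.231, adjusted p = 0.246 in edgeR) and that of KO from WT was 0.35 (SE 0.231, adjusted p = 0.551 in edgeR). With the mitochondrial share as a covariate the log2 change without DHT was 0.28 for HET against WT (adjusted p = 0.139 in edgeR) and 0.10 for KO against WT (adjusted p = 0.692 in edgeR), and neither was called. With DHT the means were 45.3 ± 4.66 CPM in KO and 42.6 ± 7.05 CPM in HET organoids, against 37.4 ± 8.48 CPM in WT organoids (SD, n = 3 each).

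The 3 genes of the complex that first binds an end passed the test in no genotype comparison. Xrcc5 (chr1:72307421-72394952), which encodes the larger Ku subunit, averaged 27.2 ± 3.601 CPM in KO and 25.2 ± 1.35 CPM in HET organoids, against 26.4 ± 2.82 CPM in WT organoids, all without DHT (SD, n = 3 each). Xrcc6 (chr15:81987835-82040085), the smaller subunit, averaged 24.5 ± 1.37 CPM in KO and 25.6 ± 1.07 CPM in HET organoids, against 23.7 ± 1.16 CPM in WT organoids without DHT. It shares 344 exon bases with Desi1 on the opposite strand, which was called in no comparison. Over all 18 organoid libraries Xrcc6 stayed between 20.1 and 26.4 CPM. Its log2 change was 0.05 for KO against WT and 0.11 for HET against WT without DHT, each with an SE near 0.0887. Prkdc (chr16:15637866-15842235), the catalytic subunit of DNA-PK, averaged 16.9 ± 1.82 CPM in KO and 16.9 ± 2.48 CPM in HET organoids, against 16.8 ± 2.03 CPM in WT organoids without DHT. With DHT it was at 15.8, 12.8 and 15.8 CPM in HET libraries, against 24.4, 15.3 and 16.7 CPM in WT libraries. The high WT value belongs to the library with the fewest reads, and the log2 change of -0.32 (SE 0.169) had an adjusted p of 0.327 in edgeR.

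The ligation genes passed the test in no comparison either. Xrcc4 (chr13:89774027-90089608), the scaffold of ligase IV, was at 12.3, 10.2 and 8.12 CPM in KO libraries and at 10.8, 9.25 and 7.30 CPM in HET libraries, against 7.99, 6.27 and 8.80 CPM in WT libraries without DHT. KO overlapped WT, and the log2 change of 0.41 (SE 0.177) had an adjusted p of 0.276 in edgeR. Lig4 (chr8:9969049-9977686), the ligase itself, averaged 17.6 ± 4.16 CPM in KO and 16.6 ± 2.40 CPM in HET organoids, against 18.03 ± 1.52 CPM in WT organoids without DHT (SD, n = 3 each). With DHT it averaged 15.5 ± 1.62 CPM in KO and 14.4 ± 2.62 CPM in HET organoids, against 15.6 ± 1.40 CPM in WT organoids. Nhej1 (chr1:74967139-75125200), which encodes XLF, the factor that bridges the ends with XRCC4, was the lowest by reads, with 6 reads in WT plus DHT replicate 1 and between 0.496 and 1.31 CPM in organoids. Its 95% intervals were correspondingly wide, and its differences between genotypes were not detectable at this depth.

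**Figure D4:**
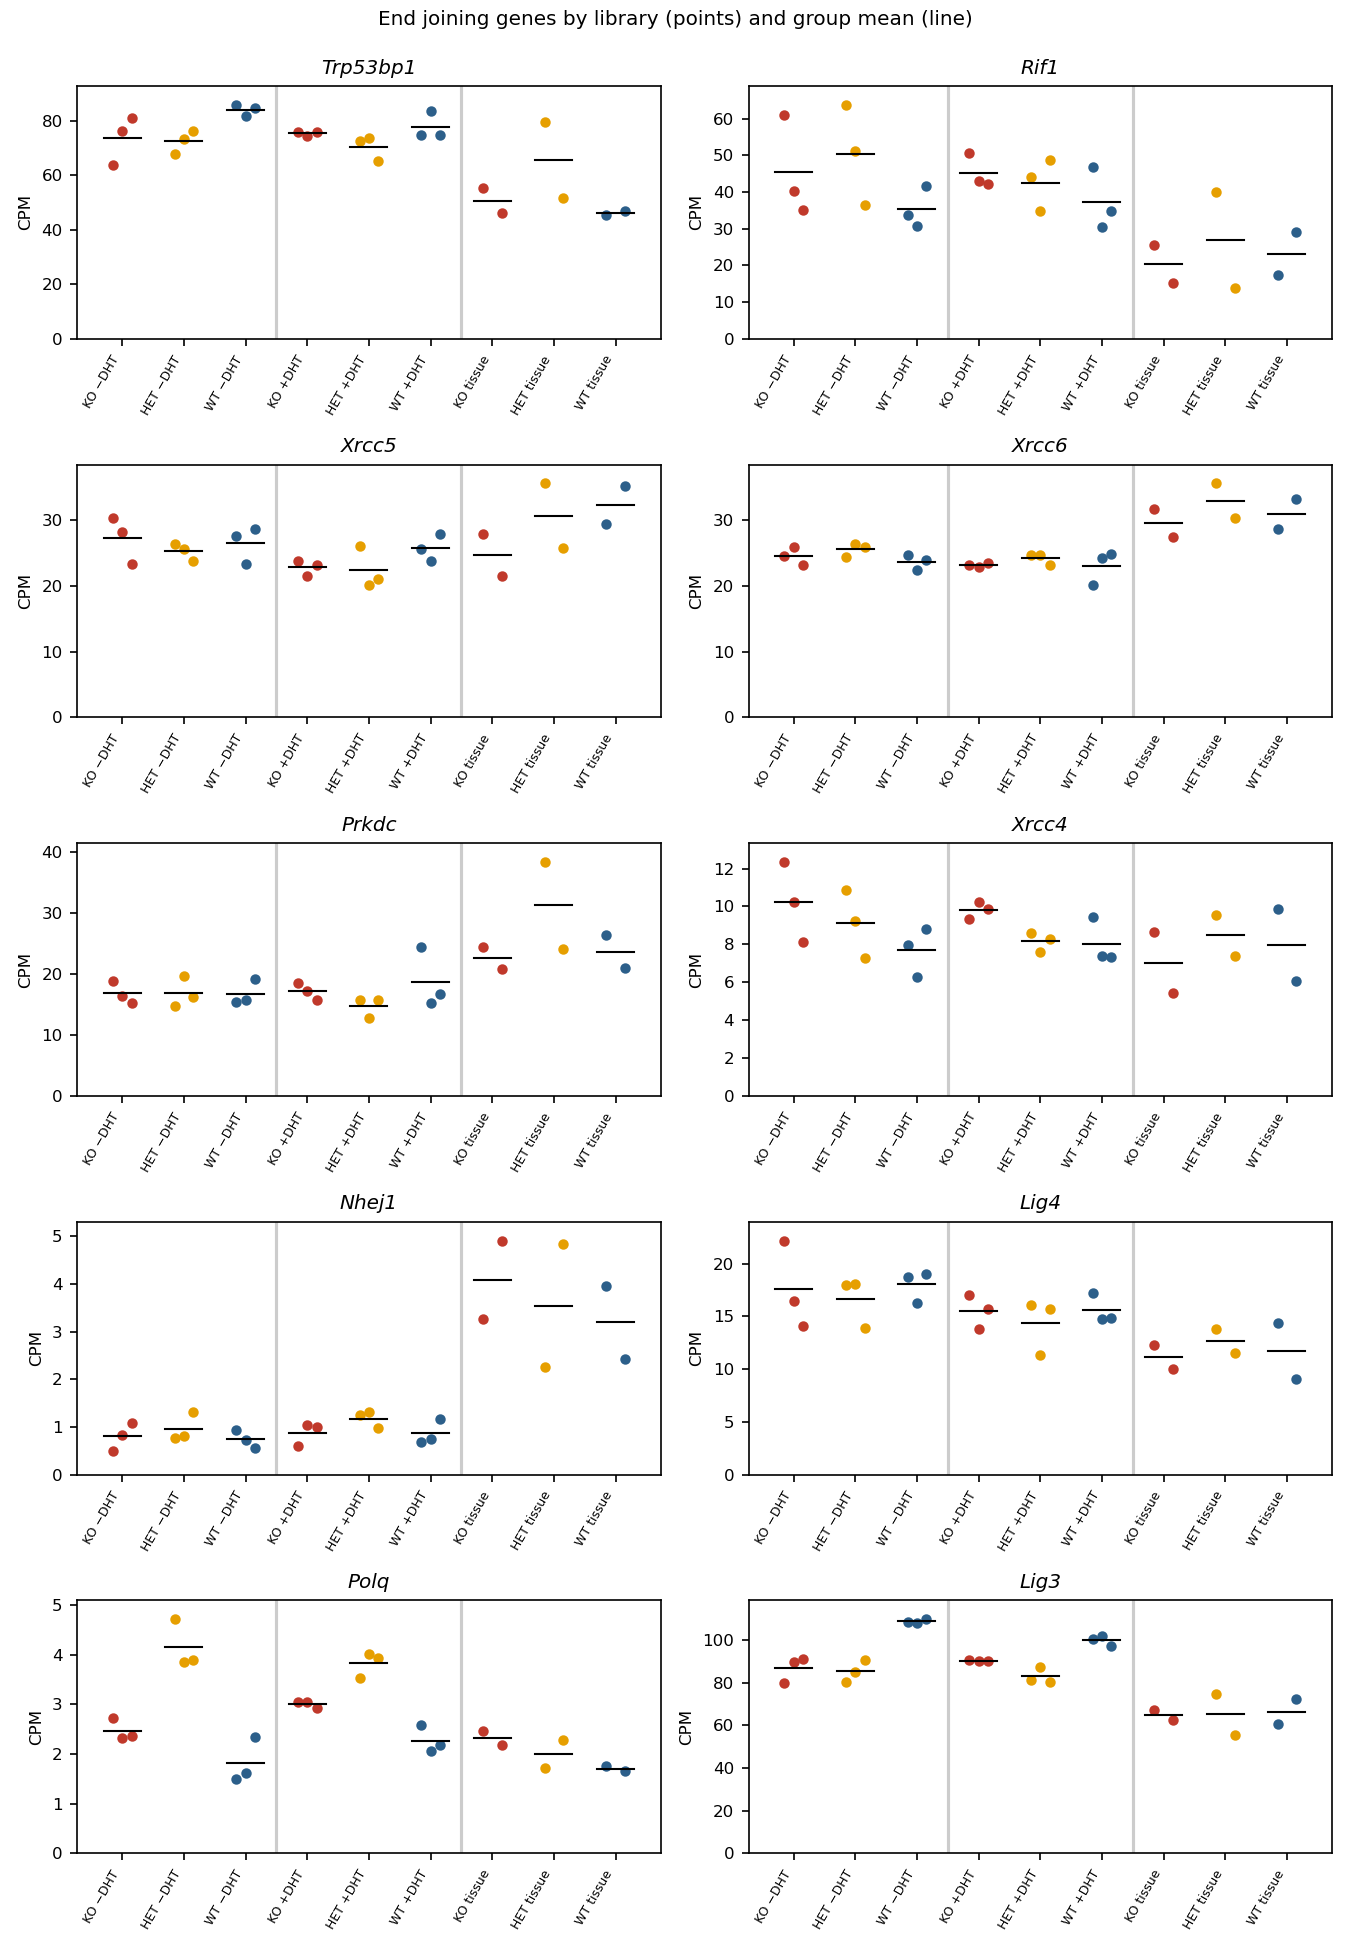
CPM (y axis, from 0) of each of the 10 genes in all 24 libraries (points) with group means (lines), by genotype, medium and material; organoids and tissue were scaled separately. The HET libraries are above the WT libraries for Polq and below them for Lig3 in both organoid media, while in tissue neither gene passed the test, with Lig3 at 62.6 and 67.0 CPM in KO against 60.4 and 72.1 CPM in WT.

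Counted by groups that do not overlap, rather than by the test, 3 of the 10 genes separated HET from WT without DHT, where 20.3% of all genes did, and 3 of 10 with DHT, where 29.1% did. KO and WT did not overlap for 2 of 10 without DHT, where 17.0% of all genes did not, and for 3 of 10 with DHT, where 24.3% did not. KO and HET did not overlap for 1 of 10 without DHT, against 12.1% of all genes, and for 5 of 10 with DHT, against 31.1%. Those 5 were Trp53bp1, Xrcc4, Prkdc and Lig3, higher in KO, and Polq, lower in KO. These counts have no test of their own.

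Removing DHT called none of the 10 genes in any genotype. The background was 0.557% of all genes in KO, 0.707% in HET and 1.30% in WT organoids. The smallest adjusted p among the 30 values was 0.726 in edgeR, for Xrcc5 in KO organoids, and 0 of 10 genes had an unadjusted p under 0.05 in any genotype. Xrcc5 averaged 27.2 ± 3.601 CPM without and 22.8 ± 1.20 CPM with DHT in KO organoids (SD, n = 3 each), a log2 change of 0.26 (SE 0.123). Polq averaged 2.47 ± 0.223 CPM without and 3.01 ± 0.0664 CPM with DHT in KO organoids, and the groups did not overlap, which held for 1 of the 10 genes there and for 11.9% of all genes. Lig3 was the gene that separated the media in WT organoids, at 108.8 ± 0.966 CPM without and 100.04 ± 2.33 CPM with DHT, where 13.6% of all genes did. Its log2 change of 0.12 (SE 0.0735) had an adjusted p of 0.857 in edgeR. No gene of the 10 separated the media in HET organoids, where 12.2% of all genes did. For the difference of a genotype comparison between media, 0 of the 10 genes and 0% of all 15427 genes were called by edgeR. At an unadjusted p under 0.05 were 417 genes for KO against WT, 433 for HET against WT and 151 for KO against HET, none of them among the 10, and DESeq2 called 6, 6 and 1 genes.

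In tissue none of the 10 genes was called in any genotype comparison, and 0% of all 16753 genes tested were called by edgeR. The unadjusted p was under 0.05 for 321 genes in KO against WT, 457 in HET against WT and 97 in KO against HET tissue, and DESeq2 called 25, 10 and 10 genes in these 3 comparisons. None of the 10 genes had an unadjusted p under 0.05. With 2 libraries a group, SEs ranged from 0.271 to 0.591 on the log2 scale, so a difference of the size of that of Lig3 in organoids was not detectable. Polq was at 2.46 and 2.17 CPM in KO tissue and at 1.73 and 2.27 CPM in HET tissue, against 1.75 and 1.65 CPM in WT tissue. KO and WT tissue did not overlap for Polq, but its log2 change of 0.44 had an SE of 0.501 and an adjusted p of 1.00 in edgeR. The retained-intron transcripts of Polq were at 1.53 and 1.42 CPM in KO tissue, against 1.12 and 0.400 CPM in WT tissue. Its coding and decay transcripts together overlapped, at 0.917 and 0.747 CPM in KO tissue, against 0.632 and 1.24 CPM in WT tissue. Lig3 was at 67.0 and 62.6 CPM in KO tissue and at 74.9 and 55.6 CPM in HET tissue, against 60.4 and 72.1 CPM in WT tissue, and all groups overlapped. Xrcc5, at 27.9 and 21.5 CPM in KO tissue, was below WT tissue, at 29.3 and 35.1 CPM. Trp53bp1, at 79.7 and 51.5 CPM in HET tissue, was above WT tissue, at 45.3 and 46.9 CPM. Such separation was found for 2 of 10 genes in KO against WT, where 31.3% of all genes had it, for 1 of 10 in HET against WT, where 24.2% had it, and for 0 of 10 in KO against HET, where 21.8% had it.

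Per unit of transcript length, the 10 genes differed by more than an order of magnitude. In organoids the median level in transcripts-per-million (TPM) was 31.9 for Lig3, 30.9 for Trp53bp1, 18.4 for Xrcc6, 14.3 for Xrcc5, 8.89 for Xrcc4, 8.44 for Rif1, 6.02 for Lig4, 1.85 for Prkdc and 0.746 for Polq. The TPM ranges of neighbours in that order overlapped, except between Trp53bp1 and Xrcc6, between Lig4 and Prkdc and between Prkdc and Polq. In tissue the median TPM was 25.5 for Lig3, 19.5 for Trp53bp1, 31.2 for Xrcc6, 16.4 for Xrcc5 and 0.952 for Polq. Xrcc6 was the gene of the 10 whose TPM did not overlap between materials, at 22.1 to 35.0 in tissue and 15.3 to 21.6 in organoids. Its transcript of highest mean TPM, Xrcc6-201, did overlap, with medians of 13.7 TPM in tissue and 16.3 in organoids. The shorter Xrcc6-212 had medians of 15.4 TPM in tissue and 0 in organoids.

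Nhej1 shows how a short transcript can fill a gene's TPM. Its median of 9.74 TPM in organoids came mostly from Nhej1-202, an annotated processed transcript of 65 bases at the start of the gene (chr1:75125136-75125200, minus strand, GRCm38), printed here from GENCODE in the direction of the gene because its length sets that value.
Nhej1-202: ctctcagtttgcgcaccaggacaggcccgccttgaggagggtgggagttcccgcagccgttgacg
Its share of Nhej1 TPM had a median of 86.0% in organoids, with 0 in some libraries. The coding transcript Nhej1-201 alone was at 2.94 to 7.12 TPM in tissue and 0.699 to 2.01 TPM in organoids, so it did not overlap between materials. Coding Nhej1 was thus higher in every tissue library than in every organoid library, a difference between materials that no test addressed because they were fitted separately.

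Some transcripts from the 3′ part of a gene took larger shares in tissue, and others did not. Xrcc6-212 held 11.1% to 57.3% of Xrcc6 TPM in tissue and 0 in every organoid library. Rif1-203 held 24.7% to 43.8% of Rif1 TPM in tissue and 0 to 16.9% in organoids. Polq-205 held 49.3% to 88.6% in tissue and 19.97% to 52.9% in organoids, and Lig3-208 held 8.58% to 37.1% in tissue and 0 to 19.9% in organoids. For Xrcc6-212 and Rif1-203 the ranges did not overlap. The tissue libraries were not alike. Xrcc6-212 was at 11.1% in HET tissue replicate 1 and 27.0% in WT tissue replicate 2, against 43.3% to 57.3% in the others. In the same order, Polq-205 was at 49.3% and 53.5%, against 81.7% to 88.6% in the others. Rif1-203 did not follow this, at 24.7% and 43.8%, against 24.8% to 40.6% in the others. Rif1-207, also from the 3′ part, held 8.64% to 38.6% in tissue and 3.75% to 16.6% in organoids. Among Trp53bp1 transcripts from the 3′ part, Trp53bp1-217 had a median share of 13.8% in tissue and 1.75% in organoids. Trp53bp1-218 had medians of 11.3% in tissue and 13.1% in organoids, and reached 15.5% in tissue and 32.5% in organoids. Trp53bp1-216 had nearly equal medians of 30.9% in tissue and 28.9% in organoids. Trp53bp1-208, a shorter coding transcript from the 5′ part of its gene, went the other way, at 0 to 12.5% in tissue and 14.2% to 33.2% in organoids. Whether RNA quality differs between the materials was not tested, and these shares touch every level compared between tissue and organoids.

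**Figure D5:**
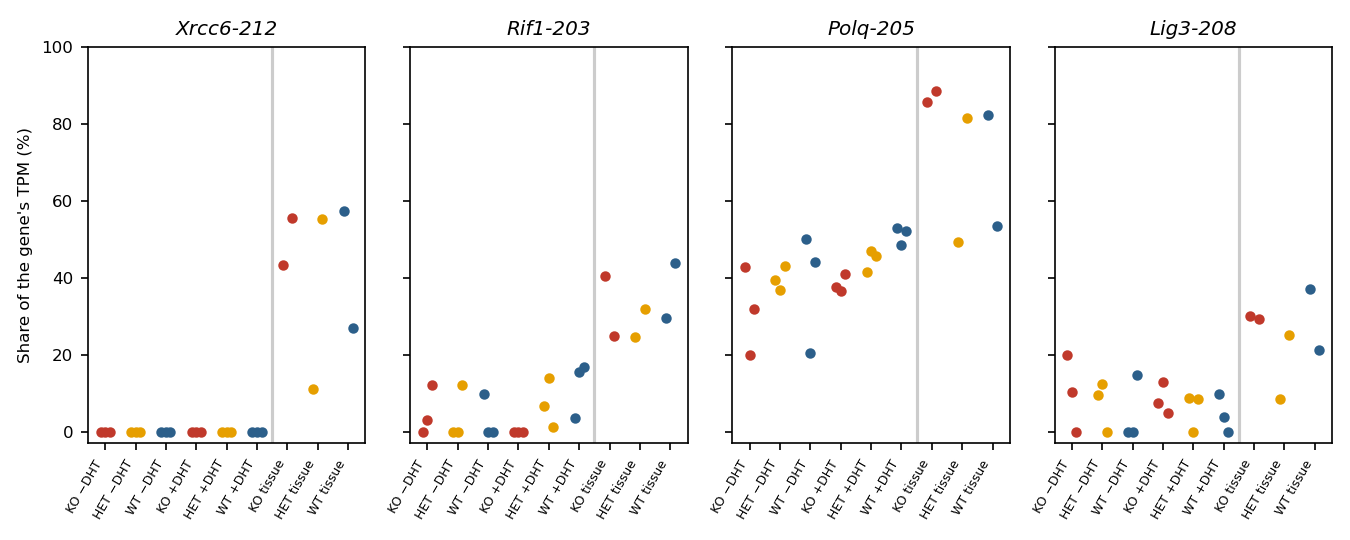
Share of the gene's TPM in percent (y axis) held by 4 transcripts from the 3′ part of Xrcc6, Rif1, Polq and Lig3, in each of 24 libraries (points) by group. Xrcc6-212 is at 0 in all organoid libraries and at 11.1% to 57.3% in tissue.

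Other genes of end joining were taken from a list of 36, of which 35 were matched and 34 tested in organoids. In HET against WT organoids, 2 of 34 rose and 0 fell without DHT, where 7.81% of all genes were called, and 1 of 34 rose and 0 fell with DHT, where 7.51% were. Both counts lie below the share over all genes, so the called genes are given as single values and not as a shift of the list. Lig1, the ligase of DNA replication, which also acts in alternative end joining, averaged 64.1 ± 1.74 CPM in HET and 43.8 ± 2.31 CPM in WT organoids without DHT (SD, n = 3 each). The log2 change of Lig1 was 0.55 (SE 0.0688, adjusted p = 8.8e-05 in edgeR), and with DHT it was 0.39 (SE 0.0691, adjusted p = 0.00219 in edgeR). Mdc1, the mediator that binds phosphorylated histone H2AX at breaks, averaged 52.9 ± 6.44 CPM in HET and 32.5 ± 2.20 CPM in WT organoids without DHT, higher by 0.70 on the log2 scale (SE 0.111), at an adjusted p of 0.000724 in edgeR. In KO against HET organoids Lig1 was the 1 of 34 that fell in each medium, by 0.41 on the log2 scale without DHT, where 2.92% of all genes were called, and by 0.51 with DHT, where 3.54% were. In KO against WT organoids 0 of 34 were called in either medium, where 4.80% of all genes were without DHT and 4.11% with DHT. An unadjusted p under 0.05 in edgeR was found for 1 of 34 in each medium, against 2288 of 15427 genes without DHT and 2034 with DHT. The median log2 change of the 34 genes lay between -0.05 and 0.05 over these 6 comparisons.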

How the data were processed

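Estimated counts and transcripts-per-million (TPM) per transcript, with lengths and effective lengths, are as the authors deposited them, per the file headers. The submitters' processing notes name Salmon 0.13.1 and hg38, although the identifiers are mouse. Index, strand setting and trimming are not given in the sources used here. The members and lists were chosen with earlier results of these data known. Each file lists 116945 transcripts. Values were summed per gene with GENCODE mouse release M21 (GRCm38), leaving out 922 transcripts without a gene there (0.227% to 0.327% of reads), and counts were rounded. Genes passing filterByExpr were tested with edgeR 4.0.16 (R 4.3.3): TMM scaling, quasi-likelihood F-test, 1 mean per group, Benjamini-Hochberg adjustment over all genes, threshold 0.05. The 18 organoid libraries (15427 genes, 12 residual degrees of freedom) and the 6 tissue libraries (16753 genes, 3 residual degrees of freedom) were fitted separately. CPM uses the TMM-scaled sizes. Comparisons were the 3 genotype pairs in each medium and in tissue, DHT removal in each genotype, and the differences between media. The code was tested on simulated data.

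Named are the 10 members and Brca1, up to 4 called genes of the other end joining genes and up to 2 of the cell cycle genes per comparison by lowest p, the 3 genes nearest each member, and transcripts holding at least 20% of a gene's TPM in a group. Rffl, Tubgcp4 and marker lists are named for overlap or tissue checks. Alternatives were DESeq2 1.42.0, its size factors in edgeR, no filter, a filter over 1 CPM, transcript length offsets, the replicate number as a block, a fit of the compared groups alone, and dropping 1 library at a time. Added after seeing the data were the mitochondrial share as covariate, dropping the 3 organoid libraries of lowest depth, and protein-coding transcripts only. Shld3 was not matched.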

Additional observations from a re-analysis of the deposited data

How the results depend on the processing

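The number of the 10 genes called in a comparison was the same with DESeq2, with its size factors in edgeR, with the filter over 1 CPM, with the mitochondrial share as covariate and with the replicate block, and comparisons with 0 called had 0 under every alternative run. Over all genes DESeq2 called 1686 for HET against WT without DHT and 1626 with DHT, where edgeR called 1205 and 1158. For KO against WT it called 1164 and 989 in that order, where edgeR called 741 and 634. For KO against HET it called 800 and 988, where edgeR called 450 and 546. The unchanged counts of the 10 thus stand beside more calls over all genes. For the other alternatives the count over all genes is not given. Without DHT, HET against WT had 2 called in the reported fit, 1 with transcript length offsets, 1 with protein-coding transcripts only and 0 with only the groups compared. With DHT, HET against WT had 2 called, and 1 with no low-count filter, with transcript length offsets, with only the groups compared and with protein-coding transcripts only. Without DHT, KO against WT had 1 called, and 0 with no low-count filter, with transcript length offsets and with only the groups compared. Without DHT, KO against HET had 1 called, and 0 under those same 3 settings, without the 3 organoid libraries with the fewest reads and with protein-coding transcripts only. Leaving out 1 library at a time gave 0 to 1 called for HET against WT with DHT, 0 to 1 for KO against WT without DHT, 0 to 1 for KO against HET without DHT, and 2 throughout for HET against WT without DHT. Without WT minus DHT replicate 3, Polq in KO against WT without DHT was called, at 0.67 (adjusted p = 0.0436 in edgeR). It was the 1 case among 2334 values of pairs of gene and comparison not called in the reported fit. Over protein-coding transcripts only, the Polq difference was gone in HET against WT without DHT, at -0.000508. In KO against HET without DHT it turned to 0.42 and was not called. The coding share of Polq reads was as low as 0 in single libraries. For the other losses the cause was not tested.

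Same-numbered replicates did not deviate together throughout: 17 of 45 organoid pairs had a correlation over 0.1, with values from -0.517 to 0.691. Between HET and KO organoids without DHT they did, at 0.613, 0.231 and 0.691 for replicates 1, 2 and 3. In tissue 4 of 6 pairs were over 0.1, but with 2 libraries a group the deviations mirror each other, so these values cannot show pairing. WT minus DHT replicate 2 deviated with replicate 3 of HET and of KO minus DHT, at 0.446 and 0.480. WT minus DHT replicate 3 deviated against them, at -0.506 and -0.517. The numbers therefore do not pair the samples across all groups, and a block on them cannot check a batch shared under other numbers. With the replicate block 2 genes were called in HET against WT in each medium, 1 in KO against WT without DHT and 1 in KO against HET without DHT. Depth limits Nhej1 and Polq most, with 6 and 23 reads in the smallest library.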
